A study of Mus musculus with 20 samples.

Results

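The genes that hydroxylate and cross-link collagen were examined in bulk RNA sequencing of mouse kidney tumors and normal mouse kidney. They were chosen by gene symbol as the oxygen-dependent enzymes that modify collagen, and all 10 were found among the 54532 genes of the count table. They are P4ha1, P4ha2 and P4ha3, Plod1, Plod2 and Plod3, and Lox, Loxl1, Loxl2 and Loxl3. The tissue came from the Cre-less AAV model, with 10 tumors and 10 normal kidneys. An adeno-associated virus (AAV) carrying sgRNAs against Vhl, Pbrm1, Keap1 and Tsc1 was injected into kidneys of C57BL/6 LSL-Cas9/+ mice that also carried Pax8 Cre/+, so that Cas9 was made only in cells with Pax8 activity, which are largely tubule epithelium. Tumors and normal kidneys came from the same cohort of 10 mice, so the mice behind both groups share the genotype and were injected. Mice of the model were killed at humane end points. The age at collection, and whether normal tissue came from the injected kidney, are not given in the sources used here, and each library is a mixture of all cells in the piece taken.

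Collagen chains are modified in successive stages by enzymes that need molecular oxygen. In the endoplasmic reticulum, prolyl 4-hydroxylases make the hydroxyproline that keeps the triple helix stable at body temperature, and lysyl hydroxylases make the hydroxylysine that carries sugars and sets the kind of cross-link; both use iron, 2-oxoglutarate and ascorbate. Outside the cell, the copper enzymes of the lysyl oxidase family convert lysine side chains to aldehydes, from which the cross-links between collagen or elastin molecules form. Several of these genes are known targets of the hypoxia-inducible factors (HIF), which accumulate when Vhl is lost.

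The promoters of the P4ha1, P4ha2 and Plod1 genes are shown because these genes were higher in every tumor and because HIF binds a short core motif. Each sequence is the 250 bases before the RefSeq start of the gene, on the strand of the gene, in build GRCm38.p6. For P4ha2 this start lies downstream of the gene start in the count table (chr11:54100095), so its window falls inside the gene. Capitals mark the core, ACGTG or GCGTG, read on both strands, so that a match on the other strand appears as CACGT or CACGC.
P4ha1, chr10:59323046-59323295, plus strand: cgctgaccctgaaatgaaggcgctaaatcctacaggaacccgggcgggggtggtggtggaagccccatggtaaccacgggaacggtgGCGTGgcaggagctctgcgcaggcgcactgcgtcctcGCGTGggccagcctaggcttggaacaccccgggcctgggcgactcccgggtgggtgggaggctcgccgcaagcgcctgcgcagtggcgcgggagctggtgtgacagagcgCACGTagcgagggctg
P4ha2, chr11:54100674-54100923, plus strand: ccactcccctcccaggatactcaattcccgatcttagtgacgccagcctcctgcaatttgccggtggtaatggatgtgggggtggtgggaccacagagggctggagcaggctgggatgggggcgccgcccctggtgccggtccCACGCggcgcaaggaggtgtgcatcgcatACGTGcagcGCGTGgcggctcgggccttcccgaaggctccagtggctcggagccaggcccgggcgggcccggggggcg
Plod1, chr4:147936777-147937026, minus strand: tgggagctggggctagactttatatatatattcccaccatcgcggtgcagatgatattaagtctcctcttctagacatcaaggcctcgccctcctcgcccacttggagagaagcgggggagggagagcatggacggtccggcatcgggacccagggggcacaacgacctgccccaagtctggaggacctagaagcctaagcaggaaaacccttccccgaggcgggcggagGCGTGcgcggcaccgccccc
P4ha1 held 3 matches, with their first bases at -163, -126 and -16 from the start. P4ha2 held 3 matches, at -107, -78 and -69, and Plod1 held 1, at -20. The P4ha3 window held 0 matches. Either core was present in 38.6% of 32851 RefSeq promoter windows of the same length, so a match is common and describes letters only. Windows for Plod2, Lox, Loxl1, Loxl2 and Loxl3 were not used here, and that of Plod3 overlaps exons of a neighbouring gene and is not printed.

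Total counts were between 14737516 and 26679704 per library. Values are given as CPM, a library's counts scaled to its total with TMM factors, or as log2 CPM. All 9 members with enough counts for a test were compared in a fit over 15354 genes, and a gene was called at an adjusted p under 0.05 (edgeR quasi-likelihood test, Benjamini-Hochberg). Of the sgRNA targets, Vhl read 12.3 to 28.6 CPM in tumors and 21.6 to 28.8 in normal kidneys, Pbrm1 36.2 to 74.9 against 20.0 to 93.0, Keap1 56.0 to 91.3 against 36.6 to 50.6 and Tsc1 25.7 to 52.0 against 18.9 to 62.1; the count over a gene does not read the edit. Normal kidney 9 had the lowest TMM factor, 0.749, and tumor 7 had the highest sums of fibroblast, smooth muscle and macrophage markers among tumors. Tumor 7 also had the lowest summed HIF targets, 6204 CPM against 9953 to 12489 in the other tumors, and the lowest summed proximal tubule markers, 1079 CPM against 3428 to 9599, beside its lowest values of P4ha1 and P4ha2; their part in the results was not tested.

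In the tumors, 6 of the 9 tested members were higher and 0 were lower, while 23.6% of all tested genes were called higher, 23.8% lower and 47.5% in either direction. The same 6 members had a log2 fold change over 1 at an unadjusted p under 0.001, limits that 8.85% of tested genes passed. P4ha1, P4ha2, Plod1, Plod2 and Loxl2 were higher in every tumor than in every normal kidney, a separation found for 5.87% of tested genes, and Plod3 was higher in 9 of 10 tumors than in any normal kidney. The median log2 fold change of the 9 members was 1.87, against -0.02 over all tested genes. Lox, Loxl1 and Loxl3 were not called. In bulk tissue, more cells of a type and more RNA per cell cannot be told apart.

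**Figure D1:**
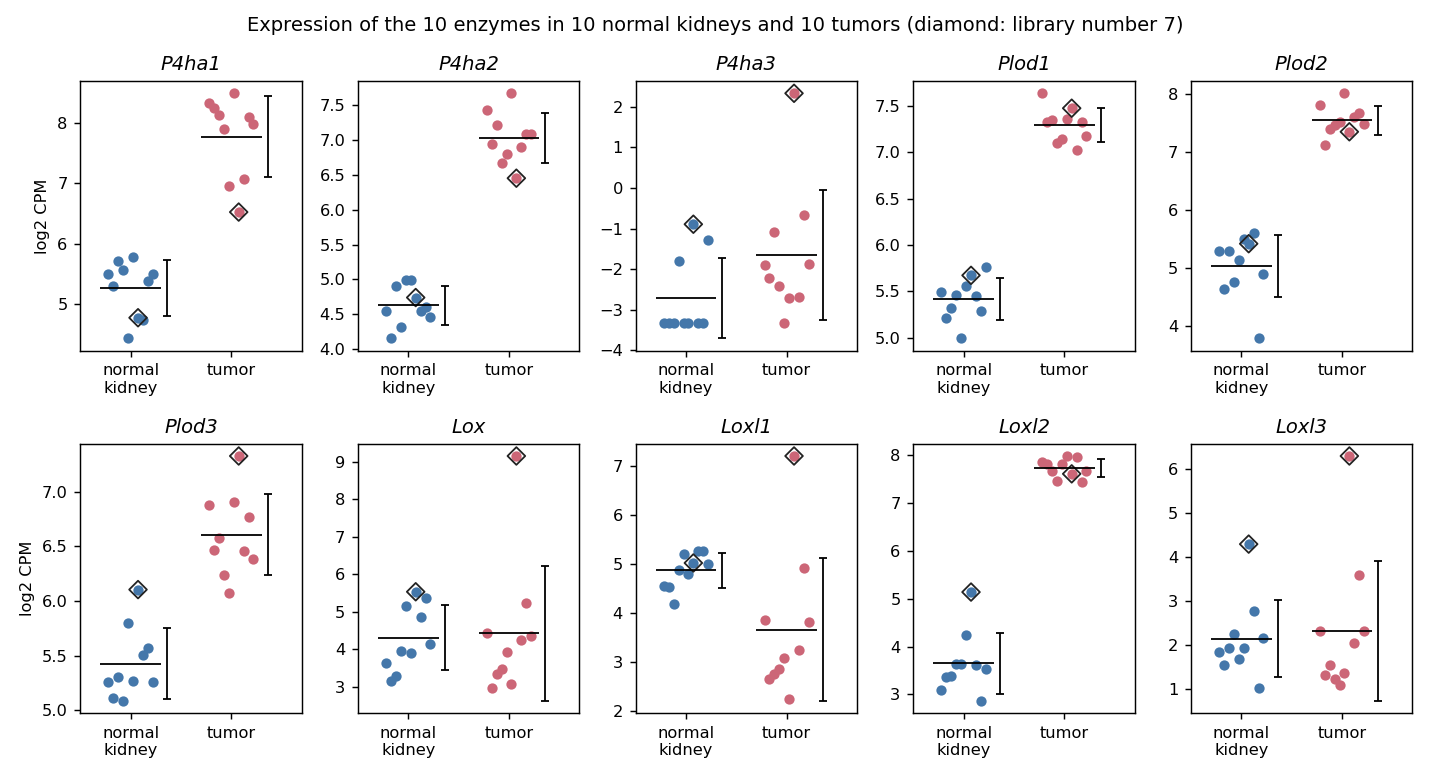
Log2 CPM of each of the 10 genes (y axis) in 10 normal kidneys (blue) and 10 tumors (red); lines are means, bars are the SD, and diamonds mark library number 7 of each group. P4ha1, P4ha2, Plod1, Plod2 and Loxl2 separate the groups, while in Lox, Loxl3 and P4ha3 tumor 7 lies far above the other tumors.

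P4ha1 (ENSMUSG00000019916, chr10:59323296-59373304, build mm10, plus strand) encodes the main catalytic subunit of prolyl 4-hydroxylase. It read 21.3, 43.2 and 54.9 CPM (lowest, median and highest) in normal kidneys and 91.9, 265 and 362 CPM in tumors. The lowest tumor lay above the highest normal kidney. The rise was 5.99-fold (log2 2.58 ± 0.25 SE, n = 10 per group, edgeR adjusted p = 2.63e-08).

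P4ha2 (ENSMUSG00000018906, chr11:54100095-54131665, plus strand), a second catalytic subunit that pairs with the same partner, read 17.7, 23.8 and 31.9 CPM in normal kidneys and 87.3, 129 and 203 CPM in tumors. Again every tumor was above every normal kidney. It rose 5.33-fold (log2 2.41 ± 0.15 SE, edgeR adjusted p = 7.05e-11).

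P4ha3 (ENSMUSG00000051048, chr7:100285520-100319699, plus strand), the third such subunit, was close to absent and was not tested in the fit. Normal kidneys 4, 7 and 10 held 4, 12 and 6 counts and the other normal kidneys 0. Tumor 7 held 116 counts, 4.95 CPM, while the other tumors lay between 0 and 0.531 CPM. Mean log2 CPM was -1.66 ± 1.61 (SD) in tumors and -2.72 ± 0.99 in normal kidneys, a difference of 1.07 that the permutation test did not call (two-sided p = 0.076, n = 10 per group; p = 0.151 without tumor 7). With no filter on low counts, the edgeR fit gave a log2 fold change of 2.66 ± 0.99 SE and an adjusted p of 0.048.

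The lysyl hydroxylases were called higher as well. Plod1 (ENSMUSG00000019055, chr4:147909753-147936767, minus strand), which hydroxylates lysines of the triple helix, read 31.7, 43.7 and 54.2 CPM in normal kidneys and 130, 160 and 199 CPM in tumors. The groups did not overlap, and the rise was 3.65-fold (log2 1.87 ± 0.10 SE, edgeR adjusted p = 1.55e-11).

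Plod2 (ENSMUSG00000032374, chr9:92542223-92608428, plus strand), which acts on lysines of the telopeptides, read 13.7, 37.1 and 48.4 CPM in normal kidneys and 140, 182 and 258 CPM in tumors. The lowest value was that of normal kidney 9, and the groups did not overlap. Plod2 rose 5.48-fold (log2 2.45 ± 0.18 SE, edgeR adjusted p = 7.45e-10). Its exons share 346 bases with an antisense gene, and the use of strand in counting is not given in the sources used here.

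Plod3 (ENSMUSG00000004846, chr5:136987019-136996648, plus strand), which also adds sugars to hydroxylysine, had the smallest rise of the called members. It read 33.8, 38.8 and 68.7 CPM in normal kidneys and 67.4, 91.9 and 160 CPM in tumors. Normal kidney 7, at 68.7, lay above tumor 5, at 67.4, and the other libraries separated. The rise was 2.29-fold (log2 1.19 ± 0.16 SE, edgeR adjusted p = 2.55e-06). Plod3 shares 538 exon bases with the antisense gene Znhit1 and a microRNA gene.

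Loxl2 (ENSMUSG00000034205, chr14:69609068-69695834, plus strand), a lysyl oxidase known to act on basement membrane collagen, changed most. It read 7.16, 11.8 and 35.1 CPM in normal kidneys, where only number 7 passed 18.7 CPM, and 173, 213 and 251 CPM in tumors. Every tumor lay far above the highest normal kidney. The rise was 15.4-fold (log2 3.94 ± 0.24 SE, edgeR adjusted p = 6.26e-11). Loxl2 shares 308 exon bases with an antisense gene and a microRNA gene.

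Lox (ENSMUSG00000024529), the founding lysyl oxidase, read 8.81, 16.6 and 46.3 CPM in normal kidneys and 7.69, 17.2 and 570 CPM in tumors. The 570 CPM belonged to tumor 7, and the other tumors lay between 7.69 and 37.3 CPM, within or just below the range of normal kidneys. With all libraries Lox had a log2 fold change of 1.64 ± 0.76 SE and was not called (edgeR adjusted p = 0.0804). Without tumor 7 it was -0.47 ± 0.35 SE (adjusted p = 0.279), and the DESeq2 test, which replaced the 13345 counts of tumor 7 by 425, gave -0.48.

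Loxl1 (ENSMUSG00000032334, chr9:58287738-58313186, minus strand), known for its part in elastic fibers, read 18.1, 30.6 and 38.6 CPM in normal kidneys and 4.66, 8.91 and 147 CPM in tumors. In 8 of 10 tumors it was below every normal kidney (0 members, and 4.74% of tested genes, were so in all 10), tumor 9 lay within their range at 30.2 CPM, and tumor 7 lay above it. With all libraries the log2 fold change was -0.27 ± 0.53 SE (edgeR adjusted p = 0.7). Without tumor 7, Loxl1 was 2.67-fold lower in tumors (log2 -1.42 ± 0.29 SE, adjusted p = 0.00034), when 27.1% of tested genes were called lower. It was called lower with all 20 libraries by DESeq2 (log2 -1.31, adjusted p = 3.11e-05, with the count of tumor 7 replaced) and by limma-voom (log2 -1.15, adjusted p = 0.0289).

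Loxl3 (ENSMUSG00000000693, chr6:83034173-83052562, plus strand), a further member of the oxidase family, read 1.95, 3.72 and 19.6 CPM in normal kidneys and 2.05, 3.44 and 78.9 CPM in tumors. The highest value in each group was that of number 7. The log2 fold change was 1.10 ± 0.67 SE (edgeR adjusted p = 0.185) and, without tumor 7, -0.37 ± 0.42 SE (adjusted p = 0.481). Loxl3 shares 535 exon bases with the antisense gene Htra2.

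**Figure D2:**
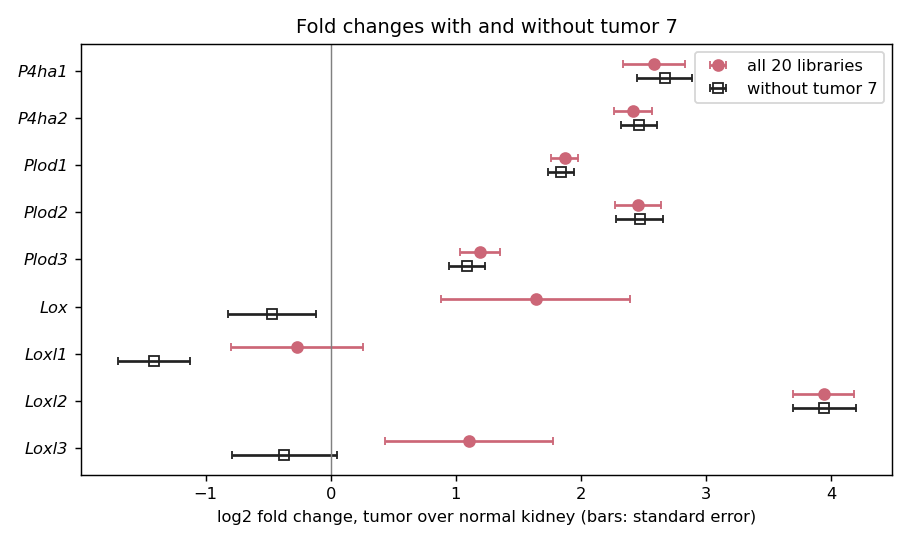
Log2 fold change of tumors over normal kidneys (x axis) with its standard error for the 9 tested genes, with all 20 libraries (red circles) and without tumor 7 (open black squares). Leaving out tumor 7 moved Lox from 1.64 to -0.47, Loxl1 from -0.27 to -1.42 and Loxl3 from 1.10 to -0.37, and moved none of the 6 called genes across 0.

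Compared per kilobase of exon length, the order of the genes differed between the tissues. In normal kidneys the highest medians were those of P4ha1 at 10.5, Loxl1 at 9.27 and Plod3 at 8.59 CPM per kb. Their ranges overlapped, as did those of every pair of neighbours in the order down to Loxl3. In tumors P4ha1 was again first, at 64.3 CPM per kb, and Loxl2 at 39.4 and Plod2 at 33.7 followed, also with overlapping ranges. The median of Loxl1 in tumors was 2.70 CPM per kb, below that of Lox at 3.57.

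As a share of the summed CPM per kb of the 4 oxidase genes, Loxl2 made up 14.6% ± 5.10 (SD, n = 10) in normal kidneys and 77.2% ± 23.0 in tumors. Tumor 7 was the exception at 16.6%, within the normal range of 6.00% to 21.9%, and the next lowest tumor, number 9, stood at 62.1%. The Loxl1 share was 53.7% ± 8.10 in normal kidneys and 8.40% ± 6.01 in tumors, with no overlap. Among the lysyl hydroxylases, Plod2 went from 28.1% ± 6.52 to 43.6% ± 5.25 and Plod3 from 43.1% ± 6.94 to 27.3% ± 4.50. In both the ranges overlapped through tumor 7 alone, at 32.9% for Plod2 and 38.6% for Plod3. The P4ha1 share of the prolyl hydroxylase genes was 69.5% ± 8.87 in normal kidneys and 71.3% ± 6.95 in tumors. The oxidase sum leaves out Loxl4, which is not a member and read up to 4.21 CPM per kb in normal kidneys and 2.38 in tumors. These shares are descriptions and were not tested.

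**Figure D3:**
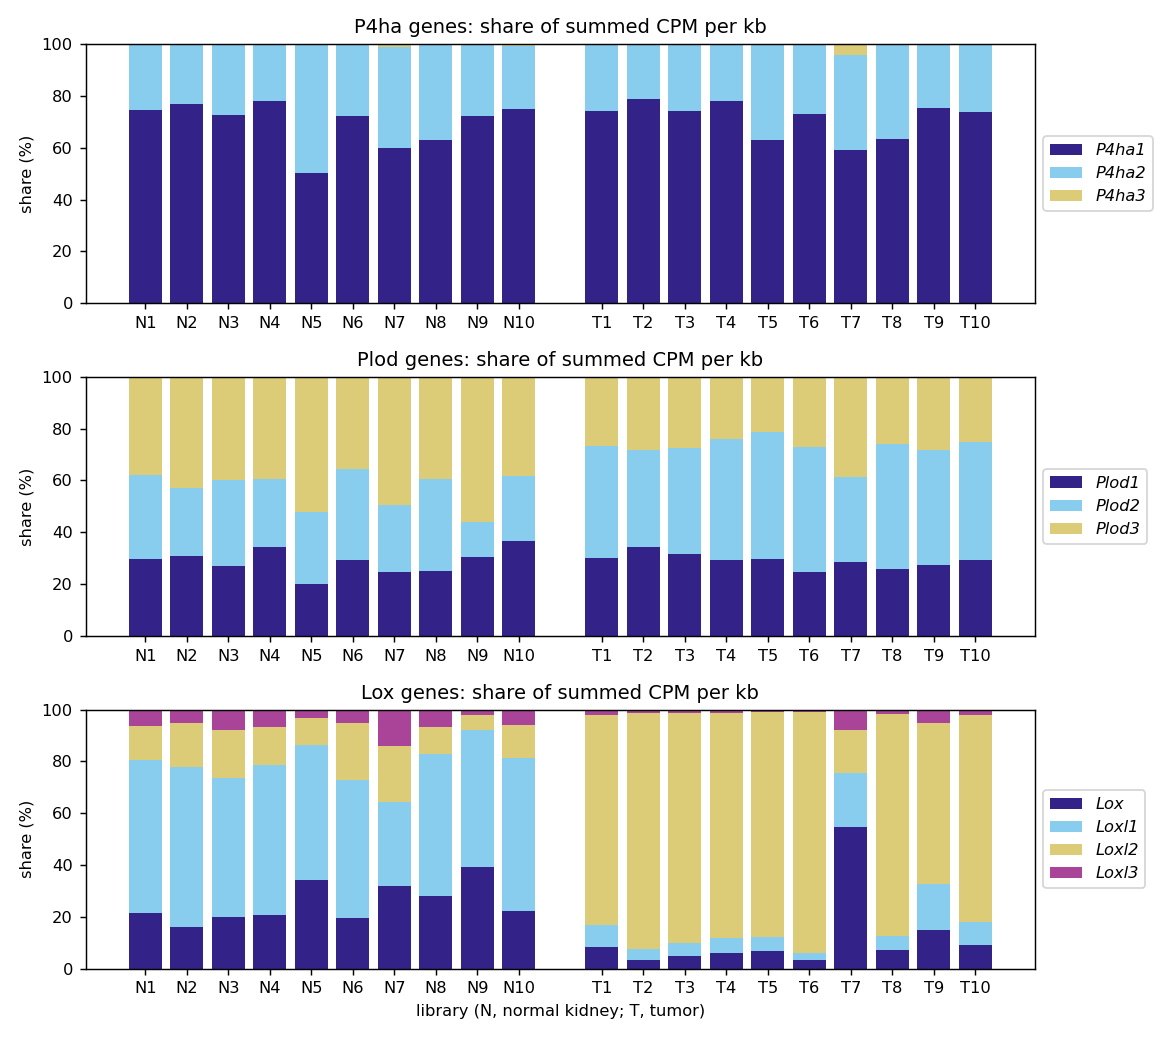
Share (%) of each gene in the summed CPM per kb of the members of its family, as stacked bars for 10 normal kidneys (N) and 10 tumors (T). The oxidase sum leaves out Loxl4, which is not a member. Loxl2 takes up 62.1% to 92.7% of that sum in all tumors but number 7, where Lox makes up 54.8%.

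Lox, Loxl1 and Loxl3 varied between tumors together with fibroblast markers. The summed CPM of 8 markers (Pdgfra, Pdgfrb, Dcn, Lum, Postn, Thy1, Fap and Dpt) was 985 in tumor 7, 281 in tumor 9 and 65.7 to 111 in the other tumors, against 163 to 308 in normal kidneys. The genes did not move as one, since 3 of the 8 were called higher in tumors and 1 lower. That is 50% called, near the 47.5% of all tested genes. Without tumor 7, 3 were higher, Thy1 (log2 1.77), Postn (log2 1.30) and Fap (log2 0.96). The 3 lower were Pdgfra (log2 -3.07), Dcn (log2 -1.19) and Pdgfrb (log2 -0.87). Of the 8 markers, Dcn had the highest mean level in tumors, at 73.1 CPM, and Fap the lowest, at 1.54 CPM. Without tumor 7, at 424 and 7.43 CPM, these means were 34.2 and 0.885 CPM. The 5 smooth muscle markers summed to 744 CPM in tumor 7 and to 35.1 to 157 in the others, with tumor 9 second. Tumors 7 and 9 were also the highest in the macrophage sum, at 1294 and 667 CPM, and in the endothelial sum, at 856 and 1061 CPM. Of the marker lists, only the fibroblast sum was correlated with the members. The share of all genes with such a relation was not computed, so a relation particular to fibroblasts or to these genes is not shown.

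Across the 10 tumors, the log2 CPM of Lox was correlated with the log2 of the fibroblast sum with Pearson's r of 0.97 (permutation test, two-sided, adjusted p = 0.0006 over 20 relations; Spearman's rho 0.94, adjusted p = 0.0036). Without tumors 7 and 9, r was 0.88. Loxl1 gave r of 0.98 (permutation, adjusted p = 0.0006; rho 0.90, adjusted p = 0.0082) and 0.88 without these tumors. Loxl3 gave r of 0.99 (permutation, adjusted p = 0.001; rho 0.83, adjusted p = 0.032) and 0.87 without them.

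P4ha3 gave r of 0.91 (permutation, adjusted p = 0.0285; rho 0.55, adjusted p = 0.192), which dropped to 0.09 without tumors 7 and 9 and so rested on them. P4ha1, P4ha2, Plod1, Plod2, Plod3 and Loxl2 gave r between -0.53 and 0.73 in tumors and were not called. In normal kidneys 0 of 10 relations were called (permutation test), where 1 had an unadjusted p under 0.05, that of Loxl1 (r = 0.67, p = 0.0341, adjusted p = 0.114). Without normal kidneys 6 and 8, the farthest from the median of the sum, r there was 0.89 for Lox, 0.80 for Loxl1 and 0.82 for Plod3, from 0.58, 0.67 and 0.44 with all 10. It also went from 0.07 to 0.61 for P4ha3 and from 0.49 to 0.65 for Loxl2. P4ha1 became more negative, from -0.44 to -0.71, and Plod2 dropped from 0.44 to 0.05. Whether a relation differed between tumors and normal kidneys was not tested. The part of fibroblasts in the values of tumor 7 was not tested.

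**Figure D4:**
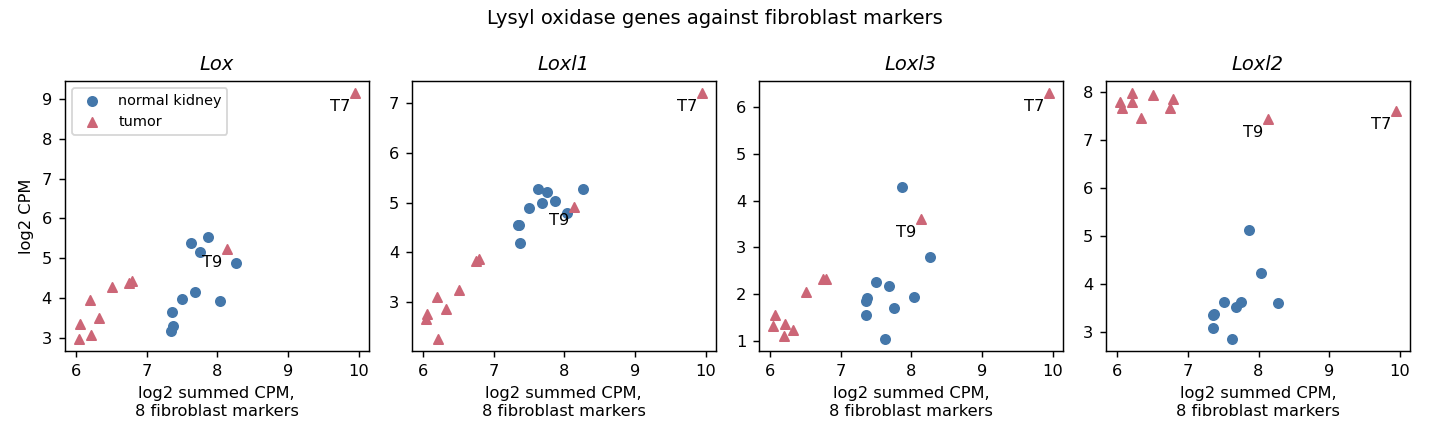
Log2 CPM of 4 lysyl oxidase genes (y axis) against the log2 summed CPM of 8 fibroblast markers (x axis) in normal kidneys (blue circles) and tumors (red triangles), with tumors 7 and 9 named. Lox, Loxl1 and Loxl3 rise with the markers across tumors (r of 0.97, 0.98 and 0.99), while Loxl2 stays at 173 CPM or above in every tumor.

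P4ha1 was lowest in the libraries numbered 5, 7 and 8 of both groups, a grouping noticed after the values were seen. Its tumor values were 125, 91.9 and 135 CPM at these numbers, and the other tumors lay between 239 and 362 CPM. Its normal kidney values were 21.3, 27.1 and 26.5 CPM, and the others lay between 39.1 and 54.9 CPM. Lcn2, a gene made by injured tubules, read 2538, 3302 and 1765 CPM in these normal kidneys and at most 232 CPM in the others. In tumors 5, 7 and 8 Lcn2 read 18.4, 165 and 38.1 CPM, and at most 17.5 CPM in the other tumors. The sum of 5 injury markers that include Lcn2 did not set these tumors apart, with 578, 1612 and 631 CPM against 835 CPM in tumor 6 and 724 CPM in tumor 10. Within that list Krt20, named after its values were seen, read 173 to 761 CPM in tumors 5, 7 and 8 and at most 117 in the others. Its normal kidney values were 32.65 to 334 CPM at these numbers and at most 4.52 elsewhere. Havcr1 overlapped in tumors (224 to 503 against 102 to 586 CPM) but not in normal kidneys (128 to 1347 against at most 35.7 CPM). Of the proximal tubule markers, Slc34a1 read 140 to 633 CPM in normal kidneys 5, 7 and 8 and 1885 to 3582 CPM in the others, and Lrp2 read 450 to 1810 CPM in tumors 5, 7 and 8 and 2477 to 4871 CPM in the others. Slc34a1 in tumors and Lrp2 in normal kidneys overlapped between these numbers and the others. No label says that a number marks a mouse, and the part of tubule injury or of proximal tubule content was not tested.

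**Figure D5:**
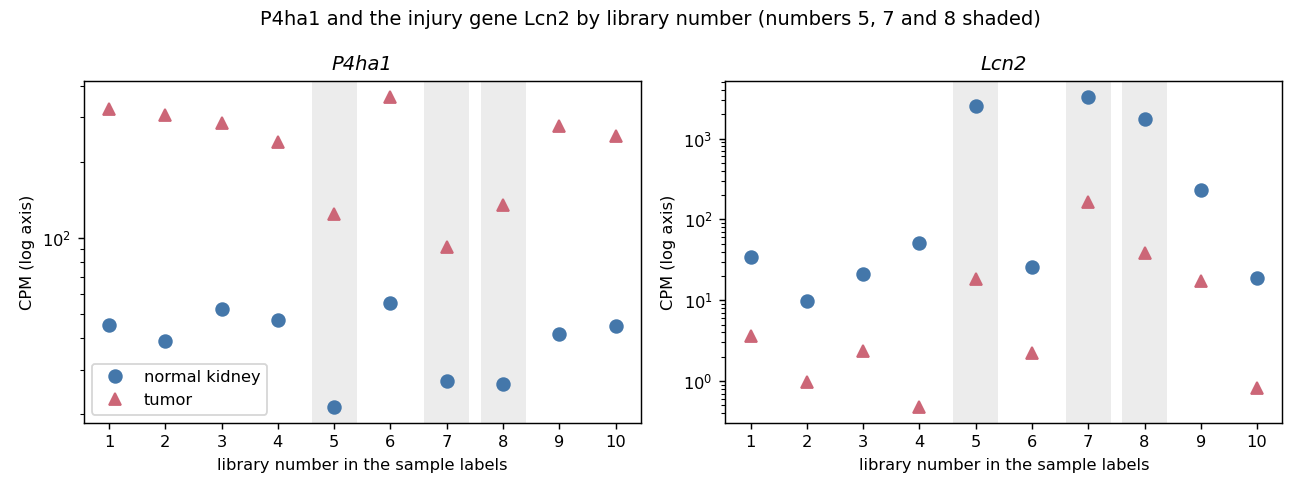
CPM (log axis) of P4ha1 and Lcn2 by library number, with normal kidneys as blue circles and tumors as red triangles; numbers 5, 7 and 8 are shaded. In the shaded columns P4ha1 is at its lowest and Lcn2 at its highest in each group.

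Among the partners of these enzymes, genes were called in both directions. Of 25 genes of collagen biosynthesis, 24 were tested, 10 were higher and 6 lower (median log2 fold change 0.40). Over all tested genes 23.6% were higher and 23.8% lower, so the lower partners were near that share. Crtap, part of the prolyl 3-hydroxylase complex, read 31.8 to 64.7 CPM in normal kidneys and 155 to 213 CPM in tumors (log2 2.12 ± 0.13 SE, edgeR adjusted p = 8.29e-11). P4hb, the shared subunit of the prolyl 4-hydroxylases, rose from 611 to 982 CPM to 1053 to 1309 CPM (log2 0.72 ± 0.11 SE, adjusted p = 1.04e-05). Colgalt1, which adds galactose to hydroxylysine, rose (log2 1.25, adjusted p = 1.83e-09) while its paralog Colgalt2 fell (log2 -2.50, adjusted p = 1.77e-07), and Mia3, which helps to export procollagen, rose (log2 0.78, adjusted p = 6.17e-06). Serpinh1, the collagen chaperone HSP47, was not called (log2 0.44, adjusted p = 0.257), and the fifth oxidase Loxl4 was lower (log2 -1.21 ± 0.45 SE, adjusted p = 0.0325). Without tumor 7 the list held 9 higher and 9 lower genes, when 23.6% of tested genes were called higher and 27.1% lower. Tll2 held at most 3 counts in any library and was not tested.

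Of the 18 genes of the substrate list, 6 were higher and 2 lower (median log2 fold change 1.08), so 44.4% were called, near the 47.5% of all tested genes. Without tumor 7 the median was -0.31, with 6 higher and 4 lower. The list includes fibronectin (Fn1), which is neither a collagen nor elastin. Fn1 was among those called higher in both fits (log2 2.77 and 2.42, edgeR adjusted p = 4.52e-05 and 5.64e-05). The basement membrane chains split. Col4a1 read 114 to 959 CPM in normal kidneys and 1417 to 2482 CPM in tumors (log2 2.20 ± 0.28 SE, edgeR adjusted p = 1.68e-06), and Col4a2 (log2 1.87, adjusted p = 5.81e-06) and Col4a5 (log2 1.05, adjusted p = 0.000556) also rose without overlap. Col4a3 (log2 -2.59, adjusted p = 3.02e-07) and Col4a4 (log2 -2.57, adjusted p = 3.56e-07), chains of the mature glomerular basement membrane, fell without overlap. The fibrillar chain Col1a1 was not called (log2 1.82 ± 0.82 SE, adjusted p = 0.0733). It read 1565 CPM in tumor 7 and 17.7 to 139 CPM in the others, and its log2 fold change was -0.05 without tumor 7.

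Of 12 other oxygen-dependent 2-oxoglutarate hydroxylases, 6 were higher and 3 lower (median log2 fold change 0.33), against 23.6% and 23.8% of all tested genes. Egln3, a HIF prolyl hydroxylase, read 17.1 to 40.7 CPM in normal kidneys and 368 to 757 CPM in tumors (log2 4.34 ± 0.20 SE, edgeR adjusted p = 6.96e-13). Egln1 (log2 1.49, adjusted p = 2.79e-09), the aspartyl hydroxylase Asph (log2 1.52, adjusted p = 1.16e-08) and Jmjd6 (log2 1.11, adjusted p = 1.63e-06) rose without overlap. Bbox1, which makes carnitine, fell (log2 -4.88 ± 0.52 SE, adjusted p = 1.25e-07). It read 0.621 to 6.69 CPM in normal kidneys and 0 to 0.214 CPM in tumors, so the size of its fall is uncertain. Of 12 HIF targets that are not members, 11 were higher and 0 lower, among them Car9, Hk2 and Ankrd37 (log2 5.20, 5.13 and 6.51).

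The cofactor genes are few, and their counts stand beside 23.6% of all tested genes called higher and 23.8% lower. Of the 5 tested genes of ascorbate supply, 1 was higher and 3 were lower. Gulo, the last enzyme of ascorbate synthesis, named after its values were seen, had too few counts for the fit and read 0.219 to 9.53 CPM in normal kidneys and 0 to 0.213 CPM in tumors, with no overlap. Without tumor 7 Gulo passed the filter, through its counts in normal kidneys alone. Its call as lower there (edgeR adjusted p = 1.55e-07), which made 4 of 6 lower, is therefore no separate evidence. Gsto1, which can reduce dehydroascorbate, rose without overlap (log2 1.35 ± 0.16 SE, edgeR adjusted p = 6.39e-07). Of the 6 genes of copper supply, 4 were higher and 1 lower, and the copper ATPase Atp7b rose without overlap, from 2.81 to 11.5 CPM to 13.8 to 24.6 CPM (log2 1.57 ± 0.22 SE, adjusted p = 4.11e-06).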

How the data were processed

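RNA from flash-frozen, pulverized tissue was made into poly A libraries and sequenced by a company, and the authors deposited raw counts per gene (build mm10). The aligner, the counting tool and the use of strand are not given in the sources used here. Libraries were grouped by their sample labels, and columns were matched by name. Counts were normalized by TMM and compared with the quasi-likelihood test of edgeR 4.0.16 (R 4.3.3, limma 3.58.1) on 15354 genes that passed edgeR's filter (count minimum 10), with Benjamini-Hochberg adjustment over all of them. Standard errors are the log2 fold change divided by the square root of F. Log2 CPM used a prior count of 2, and permutation tests 100000 resamples. Shared exon bases were read from GENCODE M21. Alternatives were RLE, upper quartile and total-count scaling, other filters, DESeq2 1.42.0, limma-voom, a replicate block and leaving out libraries; the fits were tested on simulated data. Members and lists were chosen with earlier results of these data known. All members are named, and listed genes by a rule: P4hb, Loxl4, Serpinh1, Colgalt1, Col1a1, Col4a1 and, per list, up to 4 called genes per direction whose groups did not overlap, plus the marker genes at the highest and lowest level in tumors; 1 marker list is not reported here. Which tumor and which normal kidney share a mouse is not given, so the groups were fitted without pairing, as if independent. The p-values set the difference between groups against the spread between these samples. Of 90 pairs of libraries in a group, all differed beyond counting noise.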

Additional observations from a re-analysis of the deposited data

Results flagged for a closer look

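In 4 of the 20 groups of 10 libraries examined (10 genes in tumors and in normal kidneys), the most extreme library stood apart from the others by Dixon's criterion, where chance gives about 1 in 20 groups. In 3 of them the library was tumor 7, with the highest log2 CPM of Lox at 9.15, of Loxl3 at 6.30 and of P4ha3 at 2.34. The other was normal kidney 9, with the lowest log2 CPM of Plod2 at 3.79. No cause was tested.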

How the results depend on the processing

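The 6 members named as higher were called higher under every alternative, also without normal kidneys 5, 7 and 8, an alternative chosen after seeing the data. With no filter on low counts P4ha3 was called as well, which made 7. Members called lower numbered 1 (Loxl1) in place of 0 with DESeq2, limma-voom with and without quality weights, the replicate block, without tumor 7 and normal kidney 9, and with the block without both number 7 libraries (added after seeing the data). Leaving out 1 library at a time gave 6 to 7 called members, 6 higher and 0 to 1 lower, the 1 being without tumor 7. The log2 fold change then ranged from -0.47 to 1.81 for Lox and from -0.37 to 1.60 for Loxl3. Lox turned negative with DESeq2 (-0.48), without tumor 7 (-0.47), without tumor 7 and normal kidney 9 (-0.36) and with the block without both number 7 libraries (-0.28). Loxl3 turned negative with quality weights (-0.17) and in the same last 3 settings (-0.37, -0.49 and -0.10). With the replicate block Loxl1 stood at -1.30 on the log2 scale (adjusted p = 0.0146). Same-numbered libraries correlated between -0.12 and 0.37, with 9 of 10 pairs over 0.1 and 8 of 10 tumors closest to their own number, a hint from the data, and the labels do not say what a number marks. Of the marker relations, 7 in place of 4 were called when Col1a1, Col1a2 and Col3a1 were the measure, and without tumor 7 the r of P4ha1 became 0.11, of P4ha2 0.052 and of Plod2 0.32. Upper quartile and total-count scaling shifted the all-gene median from -0.02 to -0.14 (log2), and the share of higher genes among calls from 49.8% to 39.2% and 38.5%. Without normal kidney 7, 10 genes of the substrate list were higher in place of 6. The cause was not tested. Depth limits P4ha3 and Tll2.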

Other observations

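The counts in this section stand beside 23.6% of all tested genes called higher and 23.8% lower. Without tumor 7 these shares were 23.6% and 27.1%. Of the marker lists not described so far, the macrophage list had 4 of 6 genes higher and 0 lower in tumors, and 3 of 6 higher without tumor 7. Its level in tumors was highest for Cd68 (mean 133 CPM) and lowest for Adgre1 (14.9 CPM). Of 6 endothelial markers, 1 was higher and 0 were lower, with Plvap highest at 235 CPM and Tie1 lowest at 39.7 CPM.

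The proximal tubule markers stayed present in tumors, with 3 of 8 lower and 0 higher, Lrp2 highest at 2758 CPM and Slc5a2 lowest at 19.8 CPM. Their summed level was 1079 to 9599 CPM in tumors and 2046 to 11799 CPM in normal kidneys. Normal kidneys 5, 7 and 8 stood at 2862, 2046 and 3639 CPM, and the other normal kidneys at 8313 CPM or above. Of the tumors, only numbers 2 and 4 reached that level, at 9599 and 8568 CPM. Of 5 markers of injured tubules, 1 was higher (Vcam1, log2 1.93, edgeR adjusted p = 5.48e-09) and 1 lower (Lcn2, log2 -5.00, adjusted p = 0.00491), with Havcr1 highest in tumors at 298 CPM and Lcn2 lowest at 24.9 CPM. In normal kidneys 5, 7 and 8 Lcn2 read 1765 to 3302 CPM, Havcr1 128 to 1347 and Krt20 32.65 to 334. The other normal kidneys reached at most 232, 35.7 and 4.52 CPM. Tumors read 102 to 586 CPM of Havcr1 and 28.1 to 761 of Krt20, above those others, but neither gene was called over all 20 libraries. Lcn2 read 0.474 to 165 CPM in tumors.

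Of 5 smooth muscle markers, 0 were called with all libraries (edgeR) and 5 were lower without tumor 7. Acta2 had the highest mean in tumors at 78.6 CPM and Tagln the lowest at 0.76 CPM. Both means rested largely on tumor 7, at 494 and 2.56 CPM, and without it were 32.5 and 0.56 CPM. Among the HIF targets the highest level in tumors was that of Ndrg1, 5675 CPM, and the lowest that of Ankrd37, 70.8 CPM.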
